A study of Homo sapiens with 12 samples.

Results

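The 33 autophagy and lysosome genes described here were followed in 22RV1 cells, a human prostate cancer line, after siRNA against the transcription factor ETS1 or against ZNF783, a zinc finger protein. They were chosen as a list of names, with earlier results of these data known. All 33 were matched by identifier among the 61860 genes of both count tables. The 12 RNA-seq libraries form 4 groups of 3: cells given ETS1 siRNA and the controls of that experiment, and cells given ZNF783 siRNA and the controls of that second experiment. The study concerns phosphorylated RB, ETS1 and the response to CDK4/6 inhibitors, and no drug is named in the labels of these libraries. All groups were 22RV1 cells grown in the same medium with serum, what the controls were given is not stated in the labels, and neither are the siRNA sequences or the time of harvest.

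Autophagy delivers parts of the cytoplasm to the lysosome. The ULK1 kinase complex starts the process, a lipid kinase complex with BECN1 and ATG14 marks the membrane, and conjugation enzymes attach proteins of the ATG8 family (LC3 and GABARAP) to it, which hold cargo receptors such as SQSTM1 (p62). The closed vesicle fuses with a lysosome, whose membrane carries LAMP1 and LAMP2 and whose acid lumen holds cathepsins and other hydrolases. The factors TFEB and TFE3 bind a motif with the core CACGTG in the promoters of many of these genes. In prostate cancer cells the pathway is studied as a response to starvation and to drugs.

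Library totals ran from 13518177 to 48996691 counts, so that 3 counts, taken as the floor of detection, equal 0.0612 to 0.222 counts per 1000000 counts of the library (CPM). ETS1 itself was at or under that floor throughout, with 0, 3 and 0 counts after ETS1 siRNA, against 0, 1 and 0 in the controls, so its knockdown cannot be judged here. ZNF783 had 28.7, 27.4 and 28.0 CPM in the ZNF783 siRNA libraries, against 33.8, 34.9 and 35.7 CPM in their controls. It was also lower with ETS1 siRNA, at 12.5, 18.7 and 18.5 CPM, against 21.0, 21.6 and 22.3 CPM in controls. The log2 fold change of ZNF783 was -0.31 with ZNF783 siRNA (adjusted p = 2.46e-05), and with ETS1 siRNA -0.38 over all libraries (adjusted p = 0.258) and -0.23 without replicate 1 (adjusted p = 0.00146). ETS1 siRNA replicate 1 stood apart from the other 2 libraries of its group: chi-square per degree of freedom over genes was 40.3 and 38.9 between replicate 1 and the other 2, against 1.82 between replicates 2 and 3 and 1.36 to 2.93 within the other groups. Calls with ETS1 siRNA are therefore given for both fits, with and without that library. All 10 luminal prostate markers were detected. Their summed level was 3752 to 3785 CPM with ETS1 siRNA, against 4002 to 4059 CPM in its controls, and 3705 to 3742 CPM with ZNF783 siRNA, against 4038 to 4117 CPM in its controls. Of 6 leukocyte markers 3 or 4 passed the floor in each group and they summed to 1.48 to 2.46 CPM, with CD3E at 0 in all 4 groups. Of 4 endothelial markers 1 passed it and they summed to 0.114 to 1.16 CPM, with CDH5 at 0 in all groups but the ZNF783 controls. Of 6 fibroblast markers 4 to 6 passed it, with PDGFRB at 0 in the ZNF783 controls. They summed to 59.7 to 70.8 CPM with ETS1 siRNA, against 60.1 to 62.4 CPM in its controls, and to 36.4 to 39.9 CPM with ZNF783 siRNA, against 42.9 to 46.5 CPM in its controls. Their part in the results was not tested.

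Of the 33 genes, PSAP stood far above the rest. Per kilobase of exon, this gene, which encodes the precursor of the saposins that help hydrolases reach lipids, had 169 ± 25.8 CPM (SD over the 12 libraries), and its lowest library lay above the highest library of every other member. LAMP1 had 34.0 ± 5.01 CPM per kilobase, and GABARAPL2, an ATG8 family member, had 32.4 ± 2.77. LAMP2 followed with 28.4 ± 0.801, GRN, the progranulin gene, with 27.2 ± 5.45 and GAA, the acid alpha-glucosidase, with 26.7 ± 4.02 CPM per kilobase. In that order, each gene from LAMP1 down to TFEB overlapped in range with the gene after it. At the low end, TFEB had 2.38 ± 0.407, GABARAP 2.13 ± 0.581 and HEXA, a subunit of beta-hexosaminidase, 0.688 ± 0.124 CPM per kilobase. NEU1, the lysosomal sialidase, was barely detected, with 2 to 19 counts in each library. It did not pass the filter on low counts in either experiment. The low level of GABARAP is uncertain, since 55.7% of its annotated exon bases lie in another gene as well. The same holds for 52.7% of those of CTSD, 38.8% of ATG9A, 28.5% of CTSA, 28.1% of WIPI1 and 22.0% of SQSTM1. For HEXA, also low, it holds for 16.3%.

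The core motif CACGTG was looked up in RefSeq promoters of 300 bases, from 250 before to 50 after each start (build GRCh38.p14), which were listed for 29 of the 33 genes with 35 promoters in all. CTSB, HEXA, LAMP2 and PSAP are not among them. It was present in 8 of these 35 promoters, each of a different gene (ATG3, ATG14, LAMP1, CTSA, CTSD, GAA, NEU1 and MCOLN1), while 7.26% of all 35116 promoters of that length hold it. The longer form TCACGTG, searched on both strands and overlapping the first by construction, was present in the same 8 and in 3.71% of all promoters. The 250 bases before the start are shown for the 4 of these genes that passed the test with ZNF783 siRNA, 5′ to 3′ on the gene's own strand, with each CACGTG in capitals: 1 copy for ATG14 (chr14:55411831-55412080, minus strand), 5 for LAMP1 (chr13:113296989-113297238, plus strand), 2 for CTSA (chr20:45891085-45891334, plus strand) and 2 for GAA (chr17:80101331-80101580, plus strand).
ATG14: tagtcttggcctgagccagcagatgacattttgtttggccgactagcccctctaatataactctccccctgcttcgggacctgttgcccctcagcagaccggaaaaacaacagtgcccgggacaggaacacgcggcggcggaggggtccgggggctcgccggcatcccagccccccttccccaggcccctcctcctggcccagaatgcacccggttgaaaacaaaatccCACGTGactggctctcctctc
LAMP1: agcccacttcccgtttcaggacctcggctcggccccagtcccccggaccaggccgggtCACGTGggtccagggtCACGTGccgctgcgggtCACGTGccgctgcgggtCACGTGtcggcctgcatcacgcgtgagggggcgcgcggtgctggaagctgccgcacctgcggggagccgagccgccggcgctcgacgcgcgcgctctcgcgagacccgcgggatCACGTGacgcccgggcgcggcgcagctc
CTSA: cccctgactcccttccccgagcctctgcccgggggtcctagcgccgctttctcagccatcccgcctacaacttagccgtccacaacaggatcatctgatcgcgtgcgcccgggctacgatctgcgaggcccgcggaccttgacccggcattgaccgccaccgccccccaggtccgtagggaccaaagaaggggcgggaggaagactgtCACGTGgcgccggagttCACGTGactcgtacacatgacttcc
GAA: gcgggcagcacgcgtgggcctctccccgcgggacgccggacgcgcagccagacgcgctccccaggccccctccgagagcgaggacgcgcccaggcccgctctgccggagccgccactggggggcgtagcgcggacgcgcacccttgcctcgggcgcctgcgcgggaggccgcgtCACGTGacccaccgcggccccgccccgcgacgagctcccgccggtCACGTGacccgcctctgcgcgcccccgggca
ATG14 and CTSA, with 1 and 2 copies in the bases shown, were higher with ZNF783 siRNA, as given below. LAMP1 and GAA, with 5 and 2 copies there, were lower. The searched promoter of LAMP1, which runs past the bases shown, holds 6 copies. A copy of the motif is a match of letters and shows no binding.

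With ETS1 siRNA, no member passed the test over all 6 libraries (adjusted p below 0.05, edgeR), where 0.0461% of the 19542 genes tested did. Of the 32 members tested, 9 had an unadjusted p below 0.05, as did 3535 of the 19542 genes. DESeq2 called 2 members (CTSA and GRN) against 3.76% of all genes, and limma-voom called 0. With DESeq2, 6.66% of genes of at least 10 CPM passed. Many members lay below their controls: 24 of 32 had a log2 fold change below 0, against 48.7% of all genes, and the median was -0.16, against 0.007 for all genes tested. With a correction for the GC content and length of the genes, the median was -0.05 and 21 of 32 lay below 0. In 18 members all 3 siRNA libraries were lower than all 3 controls, as in 17.8% of genes, and in 2 members (ATG12 and ATG14) all 3 were higher, as in 17.5% of genes. In these bulk samples a lower level in every cell and fewer cells that express a gene cannot be told apart.

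The libraries of the ETS1 siRNA group did not move by the same amount. In 27 of 32 members, replicate 1 lay outside the span of replicates 2 and 3 by more than the gap between those 2 libraries, as it did in 71.3% of all genes. Without replicate 1, 14 of 32 members passed the test, 13 of them lower and 1 higher. Of all 20237 genes tested in that fit 23% passed, 13% lower and 9.96% higher. Among genes that averaged 10 CPM or more, 39% passed, 22.9% lower and 16.1% higher. The 13 lower members were the receptor SQSTM1, GABARAPL1, ULK1, ATG2A, ATG4B, ATG9A, ATG16L1, TFE3 and the lysosomal CTSA, CTSD, CTSL, PSAP and GRN, and ATG12 was the higher one. When replicate 1 was kept with a lower weight (limma-voom with quality weights), 11 of these 14 passed, all but GABARAPL1, ATG2A and ATG4B, where 19.8% of all genes did. Of genes of at least 10 CPM, 30.1% did. Fold changes were small: the lowest was that of CTSA, at 81.6% of the control level.

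**Figure D1:**
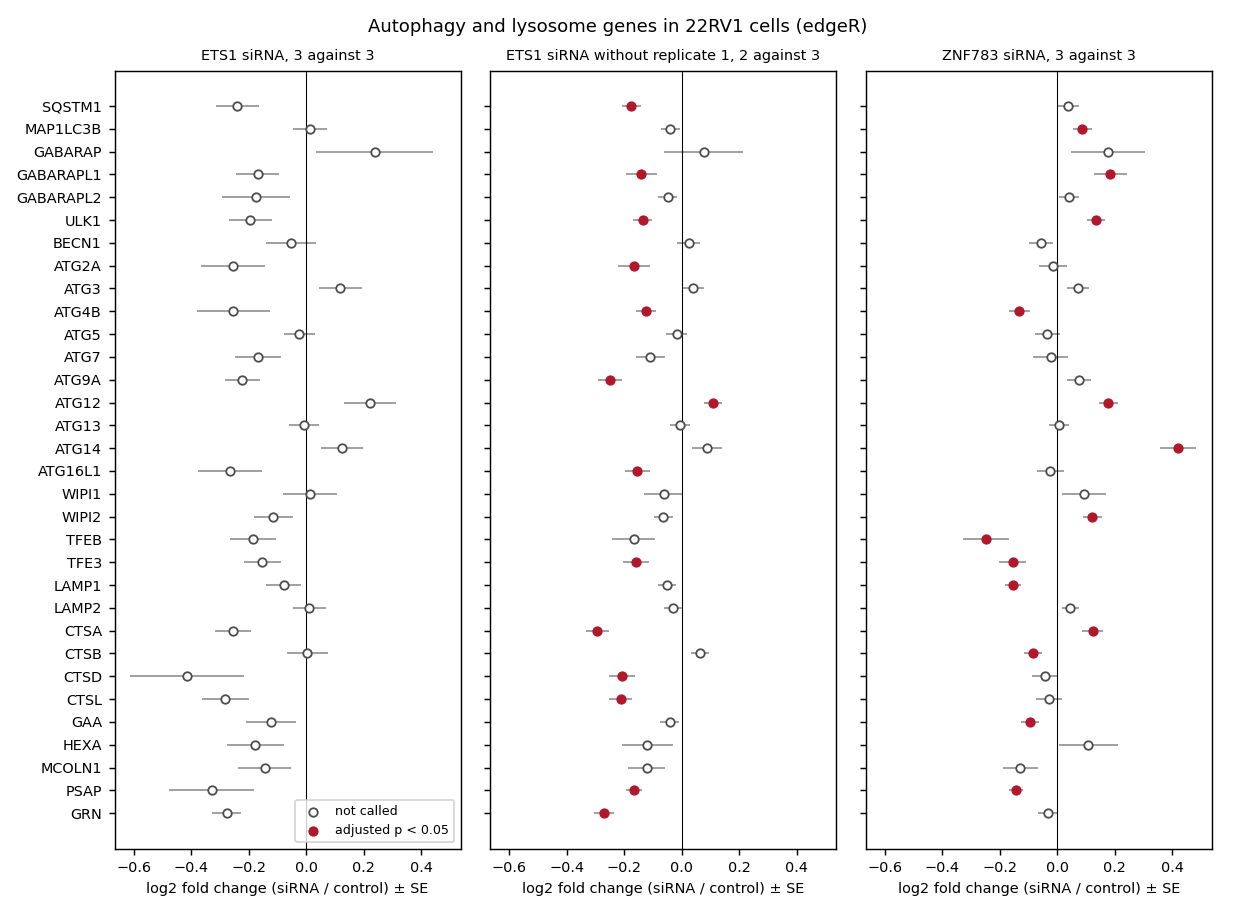
Log2 fold change with its standard error (x axis) of the 32 tested members (y axis, by role) with ETS1 siRNA over all 6 libraries, with ETS1 siRNA without replicate 1, and with ZNF783 siRNA. Filled points passed the test, which are 0, 14 and 14 members, and open points did not; in the middle panel 13 of the filled points lie below 0, and in the right panel 7 do.

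At the start of the pathway, ULK1, the kinase that begins vesicle formation, had 83.8, 96.7 and 98.0 CPM in ETS1 siRNA libraries, against 107.1, 103 and 109 CPM in controls. All 3 siRNA libraries lay below all 3 controls. The log2 fold change was -0.20 ± 0.07 (SE) over all 6 libraries (adjusted p = 0.249) and -0.14 ± 0.03 without replicate 1 (adjusted p = 0.00154). ATG2A, which carries lipids to the growing membrane, had 20.7, 27.0 and 24.95 CPM in ETS1 siRNA libraries, against 28.1, 27.3 and 31.5 CPM in controls. Here too the groups did not overlap, and the siRNA libraries were the lower ones. Over all 6 libraries this was a log2 fold change of -0.26 ± 0.11 with an adjusted p of 0.286, and without replicate 1 it was -0.17 ± 0.05 with 0.0227. ATG9A, a lipid scramblase on the vesicles that seed the membrane, had 49.5, 48.0 and 47.1 CPM in ETS1 siRNA libraries, against 55.2, 54.3 and 59.1 CPM in controls. Replicate 1 was close to the other siRNA libraries for this gene, and all 3 were lower than the controls. For ATG9A the log2 fold change was -0.25 ± 0.04 without replicate 1 (adjusted p = 2.28e-06), and -0.22 ± 0.06 with it (adjusted p = 0.17).

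Of the conjugation system, ATG12, the ubiquitin-like protein joined to ATG5, was the one that rose without replicate 1. Its levels were 174, 141 and 141 CPM in ETS1 siRNA libraries, against 129.9, 134 and 127 CPM in controls. Replicate 1 was the highest library, and the other 2 siRNA libraries lay just above the controls. On the log2 scale its fold change, 0.22 ± 0.09 with all libraries (adjusted p = 0.264), was 0.11 ± 0.03 without replicate 1 (adjusted p = 0.00712). ATG16L1, which places the ATG12-ATG5 conjugate on the membrane, had 29.1, 38.9 and 38.0 CPM in ETS1 siRNA libraries, against 42.6, 42.3 and 42.9 CPM in controls. All 3 siRNA libraries were lower than all controls, replicate 1 by the most. ATG16L1 differed by -0.27 ± 0.11 on the log2 scale with all libraries (adjusted p = 0.27) and by -0.15 ± 0.04 without replicate 1 (adjusted p = 0.0044). ATG4B, the protease that trims ATG8 proteins, had 52.7, 73.0 and 73.6 CPM in ETS1 siRNA libraries, against 78.0, 78.0 and 82.1 CPM in controls. The groups were again apart, with replicate 1 lowest. Over all 6 libraries this was a log2 fold change of -0.25 ± 0.13 with an adjusted p of 0.323, and without replicate 1 it was -0.12 ± 0.04 with 0.0066.

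Among the ATG8 family and its receptor, SQSTM1 had 90.8, 106 and 106.9 CPM in ETS1 siRNA libraries, against 122, 115 and 121 CPM in controls. The siRNA libraries were lower without overlap. For SQSTM1 the log2 fold change was -0.18 ± 0.03 without replicate 1 (adjusted p = 3.01e-05), and -0.24 ± 0.08 with it (adjusted p = 0.202). GABARAPL1 had 22.0, 23.3 and 24.4 CPM in ETS1 siRNA libraries, against 27.9, 25.2 and 25.4 CPM in controls. Its siRNA libraries all lay below its controls by a small margin. On the log2 scale its fold change, -0.17 ± 0.08 with all libraries (adjusted p = 0.29), was -0.14 ± 0.05 without replicate 1 (adjusted p = 0.0455). The other 3 ATG8 genes did not pass. MAP1LC3B, which encodes LC3B, had 98.4, 89.1 and 90.2 CPM in ETS1 siRNA libraries, against 89.6, 93.1 and 92.3 CPM in controls, with overlapping groups and a log2 fold change of -0.04 without replicate 1. GABARAP had 5.00, 3.36 and 3.79 CPM in ETS1 siRNA libraries, against 4.02, 3.52 and 2.68 CPM in controls, also overlapping, and a log2 fold change of 0.08. GABARAPL2 had 74.1, 101 and 101 CPM in ETS1 siRNA libraries, against 102, 106 and 103 CPM in controls, with all siRNA libraries below the controls and replicate 1 far below them. Its log2 fold change was -0.17 over all libraries and -0.05 without replicate 1.

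Among lysosomal genes, PSAP (ENSG00000197746, chromosome 10, 71816298 to 71851375, minus strand, GRCh38) had 320.1, 475 and 485 CPM in ETS1 siRNA libraries, against 539, 527 and 543 CPM in controls. Replicate 1 was far below the rest, and the other 2 siRNA libraries also lay below all controls. PSAP differed by -0.33 ± 0.15 on the log2 scale with all libraries (adjusted p = 0.295) and by -0.17 ± 0.03 without replicate 1 (adjusted p = 3.86e-06). GRN (ENSG00000030582, chromosome 17, 44345086 to 44353102, plus strand), whose product is processed to granulins in the lysosome, had 71.1, 73.2 and 73.3 CPM in ETS1 siRNA libraries, against 87.7, 86.7 and 89.2 CPM in controls. The 3 siRNA libraries were close to each other and lower than every control. Over all 6 libraries this was a log2 fold change of -0.28 ± 0.05 with an adjusted p of 0.103, and without replicate 1 it was -0.27 ± 0.03 with 9.53e-09. CTSA (ENSG00000064601, chromosome 20, 45890144 to 45898820, plus strand), the carboxypeptidase that protects beta-galactosidase and sialidase, had 51.0, 47.8 and 47.2 CPM in ETS1 siRNA libraries, against 60.1, 57.0 and 57.0 CPM in controls. Its replicate 1 was the highest of the 3 siRNA libraries, and all 3 were lower than the controls. For CTSA the log2 fold change was -0.29 ± 0.04 without replicate 1 (adjusted p = 3.32e-08), and -0.26 ± 0.06 with it (adjusted p = 0.147).

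CTSL, a cysteine protease, had 38.3, 45.1 and 46.2 CPM in ETS1 siRNA libraries, against 51.5, 52.9 and 53.3 CPM in controls. All 3 siRNA libraries were lower. On the log2 scale its fold change, -0.28 ± 0.08 with all libraries (adjusted p = 0.185), was -0.21 ± 0.04 without replicate 1 (adjusted p = 3.2e-05). CTSD, an aspartic protease, had 18.5, 33.2 and 31.0 CPM in ETS1 siRNA libraries, against 37.1, 35.6 and 38.2 CPM in controls. Replicate 1 had the lowest value by far, and the other 2 siRNA libraries were nearer to the controls though still below them. CTSD differed by -0.41 ± 0.20 on the log2 scale with all libraries (adjusted p = 0.312) and by -0.21 ± 0.05 without replicate 1 (adjusted p = 0.000434). TFE3, one of the factors that bind the CACGTG motif, had 31.7, 32.3 and 31.1 CPM in ETS1 siRNA libraries, against 36.5, 33.5 and 35.7 CPM in controls. These groups did not overlap, and the siRNA libraries were the lower ones. Over all 6 libraries this was a log2 fold change of -0.15 ± 0.06 with an adjusted p of 0.27, and without replicate 1 it was -0.16 ± 0.05 with 0.00833. Its relative TFEB was at 10.2 to 11 CPM in ETS1 siRNA libraries, below its controls at 11.6 to 12.8 CPM, a log2 fold change of -0.17 without replicate 1 that did not pass (adjusted p = 0.1).

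The other 11 members of the ETS1 comparison, BECN1, ATG3, ATG5, ATG7, ATG13, WIPI1, LAMP2, CTSB, HEXA, GAA and MCOLN1, did not pass with or without replicate 1. Without it their log2 fold changes ran from -0.12 for MCOLN1, the lysosomal calcium channel, to 0.06 for CTSB, a cysteine protease. ATG14, WIPI2 and LAMP1, which passed with ZNF783 siRNA, had 0.09, -0.06 and -0.05 on the same log2 scale. BECN1, the core of the lipid kinase complex, had 41.7, 49.6 and 51.2 CPM with ETS1 siRNA and 49.3, 50.7 and 48.1 CPM in controls. ATG13, the adaptor of the ULK1 complex, had 79.4, 80.8 and 81.8 CPM with ETS1 siRNA, against 83.4, 79.3 and 80.9 CPM in controls. Both of these overlapped with their controls in range.

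The siRNA effects moved with the base composition of the genes. The members had a median GC content of 52.5% in their longest annotated transcript, against 47.4% for genes of at least 10 CPM, and 12 of 33 were above 55%, against 27.1% of those genes. With ETS1 siRNA the median log2 fold change of the 12 members above 55% GC was -0.23, against -0.04 for the other 20 tested. Across members the rank correlation of fold change with GC content was -0.592 (32 members), and across genes of at least 10 CPM it was -0.644 (10367 genes). With ZNF783 siRNA these were -0.364 and -0.529. The points share their libraries, so these are descriptions with no test. After a correction for GC content and length the ETS1 medians were -0.05 above and -0.06 at or below 55% GC. The ZNF783 siRNA medians were -0.04 above and 0.04 at or below 55% GC, and became 0.099 and 0.0001 with the correction. With that correction and without ETS1 siRNA replicate 1, 13 members passed, 11 lower and 2 higher, where 20.2% of all genes did, 11.2% lower and 9.05% higher. Among genes of at least 10 CPM, 33.9% passed, 19.7% lower and 14.2% higher. Of the 14 members named before, SQSTM1, GABARAPL1, ATG9A, ATG16L1, CTSA, CTSL, PSAP and GRN kept their call and direction. ULK1, ATG2A, ATG4B, ATG12, TFE3 and CTSD lost it, GABARAPL2, ATG5 and LAMP2 were called lower, and CTSB and GAA were called higher.

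**Figure D2:**
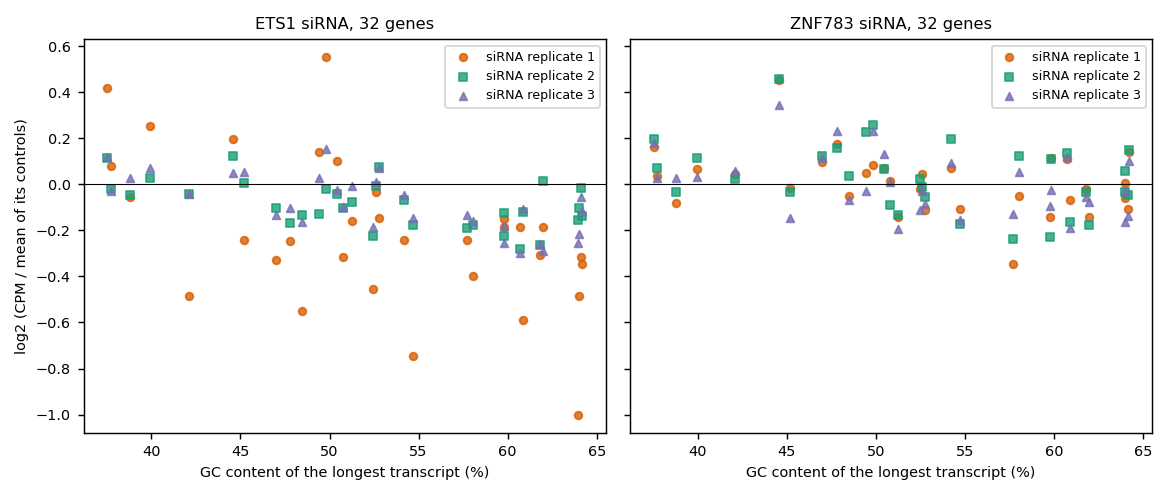
Log2 ratio of each siRNA library to the mean of its controls (y axis) against GC content in percent (x axis), for the 32 tested members with ETS1 siRNA and with ZNF783 siRNA. Points for ETS1 siRNA replicate 1 spread the most, and the ratios are lower at high GC content in the left panel, with a rank correlation of -0.592 for the fold change.

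With ZNF783 siRNA, 14 of 32 members passed the test, 7 higher and 7 lower, where 25.1% of the 17630 genes tested passed, 11.3% higher and 13.8% lower. Among genes of at least 10 CPM, 37.2% passed, 17.1% higher and 20% lower. With the GC and length correction the split was 10 higher and 3 lower, where 1553 of 17254 genes were higher and 1857 lower. Of genes of at least 10 CPM, 13.2% were higher and 15.4% lower in that corrected fit. Without the correction the median log2 fold change of the members was -0.006, against 0.002 for all genes tested. The higher members were mostly of the vesicle-forming machinery (MAP1LC3B, GABARAPL1, ULK1, ATG12, ATG14 and WIPI2, with the lysosomal CTSA), and the lower ones were ATG4B, the factors TFEB and TFE3, and the lysosomal LAMP1, CTSB, GAA and PSAP. ATG14 was the one member past a 1.2-fold change. In 9 members all siRNA libraries were above all controls, as in 18.3% of genes, and in 6 they were below, as in 19.8% of genes.

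ATG14 (ENSG00000126775, chromosome 14, 55366392 to 55411858, minus strand), the subunit that sends the lipid kinase complex to the site of autophagosome formation, had 31.1, 31.2 and 28.9 CPM in ZNF783 siRNA libraries, against 20.7, 23.2 and 24.4 CPM in controls. The groups did not overlap, and the lowest siRNA library stood well above the highest control. That is a log2 fold change of 0.42 ± 0.06 (adjusted p = 1.56e-06), or 133.7% of the control level. It passed under each alternative tried, with log2 fold changes of 0.36 to 0.48. ULK1 had 159, 160.3 and 155 CPM in ZNF783 siRNA libraries, against 141, 149 and 143 CPM in controls. Its 3 siRNA libraries were higher than all controls. This was 109.7% of the control level (log2 0.13 ± 0.03, adjusted p = 0.00102). WIPI2, which binds the lipid made by that complex and recruits ATG16L1, had 136, 148 and 138 CPM in ZNF783 siRNA libraries, against 129, 132 and 127 CPM in controls. The siRNA libraries were higher without overlap. WIPI2 thus differed by 0.12 ± 0.03 on the log2 scale, with an adjusted p of 0.00559.

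ATG12 had 137, 140.3 and 139 CPM in ZNF783 siRNA libraries, against 123, 118 and 127 CPM in controls. All siRNA libraries were above all controls. For ATG12 the level was 113.1% of that in controls (log2 0.18 ± 0.03, adjusted p = 4.45e-05). GABARAPL1 had 30.3, 30.0 and 31.5 CPM in ZNF783 siRNA libraries, against 27.6, 26.2 and 26.8 CPM in controls. The groups were separate, with the siRNA libraries higher. That is a log2 fold change of 0.18 ± 0.06 (adjusted p = 0.0144), or 113.6% of the control level. MAP1LC3B had 130.4, 130.01 and 136 CPM in ZNF783 siRNA libraries, against 124, 125 and 123 CPM in controls. The margin between the groups was narrow, and the siRNA libraries were the higher ones. This was 106.2% of the control level (log2 0.09 ± 0.03, adjusted p = 0.0406). GABARAP had 5.93, 6.69 and 6.57 CPM in ZNF783 siRNA libraries, against 6.14, 4.30 and 6.34 CPM in controls. GABARAPL2 had 101, 99.2 and 101 CPM in ZNF783 siRNA libraries, against 102, 94.7 and 95.9 CPM in controls. Both overlapped with their controls, and their log2 fold changes of 0.18 and 0.04 did not pass. ATG4B had 89.8, 84.1 and 82.7 CPM in ZNF783 siRNA libraries, against 95.4, 95.4 and 92.0 CPM in controls. Among the 33 it was the one conjugation gene whose siRNA libraries were all lower. ATG4B thus differed by -0.13 ± 0.04 on the log2 scale, with an adjusted p of 0.00646.

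TFEB and TFE3, which bind the CACGTG motif, were both lower. TFEB had 13.3, 14.3 and 15.4 CPM in ZNF783 siRNA libraries, against 15.6, 17.3 and 17.7 CPM in controls. Its siRNA libraries lay below all controls, the highest of them just under the lowest control. For TFEB the level was 84.2% of that in controls (log2 -0.25 ± 0.08, adjusted p = 0.0166). TFE3 had 44.4, 41.8 and 45.9 CPM in ZNF783 siRNA libraries, against 47.6, 50.5 and 48.9 CPM in controls. The groups did not overlap. That is a log2 fold change of -0.16 ± 0.05 (adjusted p = 0.011), or 89.7% of the control level. Neither TFEB nor TFE3 passed with the correction for GC content and length.

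Of the lysosomal genes, PSAP had 599, 572 and 579.5 CPM in ZNF783 siRNA libraries, against 652, 638 and 644 CPM in controls. The siRNA libraries were lower without overlap. This was 90.5% of the control level (log2 -0.14 ± 0.02, adjusted p = 1.68e-05). LAMP1, a main glycoprotein of the lysosomal membrane, had 216, 217 and 208 CPM in ZNF783 siRNA libraries, against 239, 242 and 234 CPM in controls. All 3 siRNA libraries were below all controls. LAMP1 thus differed by -0.15 ± 0.03 on the log2 scale, with an adjusted p of 4.42e-05. CTSB had 141, 147 and 144 CPM in ZNF783 siRNA libraries, against 157, 152 and 149 CPM in controls. Here the highest siRNA library was close to the lowest control. For CTSB the level was 94.3% of that in controls (log2 -0.08 ± 0.03, adjusted p = 0.0424). GAA had 153, 159.9 and 149.8 CPM in ZNF783 siRNA libraries, against 158, 169 and 168 CPM in controls. The groups overlapped by 1 library on each side. That is a log2 fold change of -0.10 ± 0.03 (adjusted p = 0.0217), or 93.6% of the control level. With the GC and length correction GAA turned to the higher side. CTSA went the other way, with 90.5, 91.9 and 90.98 CPM in ZNF783 siRNA libraries, against 82.9, 86.8 and 81.6 CPM in controls. Its siRNA libraries were all higher. This was 108.8% of the control level (log2 0.12 ± 0.04, adjusted p = 0.0107).

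**Figure D3:**
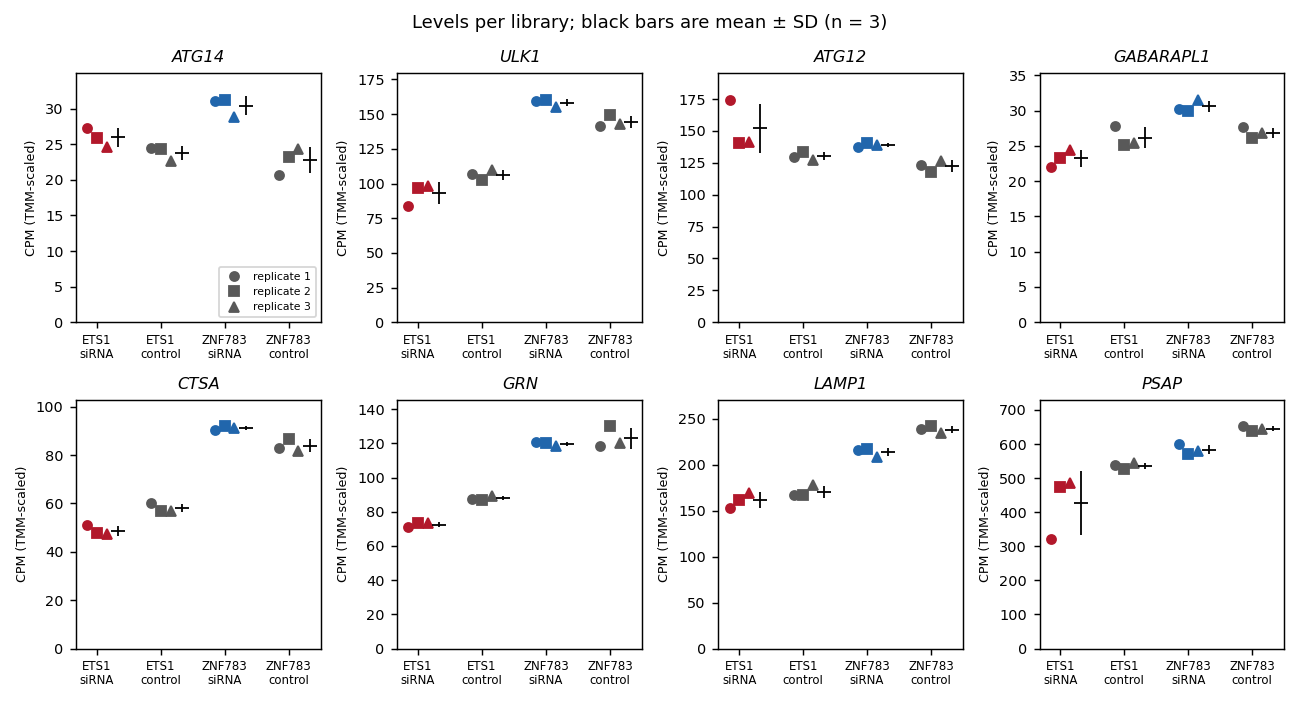
Level in TMM-scaled CPM (y axis, from 0) of 8 members in each library (x axis: siRNA left of its controls for each experiment; symbols are replicates, black bars mean ± SD of 3 libraries). ATG14 lies between 28.9 and 31.2 CPM with ZNF783 siRNA, above all its controls; CTSA lies below its controls with ETS1 siRNA and above them with ZNF783 siRNA; and PSAP has its lowest value, 320.1 CPM, in ETS1 siRNA replicate 1.

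The other 16 tested members with ZNF783 siRNA, besides GABARAP and GABARAPL2, had log2 fold changes from -0.13 for MCOLN1 to 0.11 for HEXA and did not pass. These include SQSTM1 at 0.04, ATG2A at -0.02, ATG9A at 0.07, ATG16L1 at -0.02, CTSD at -0.04, CTSL at -0.03 and GRN at -0.03, which had all been lower with ETS1 siRNA without replicate 1. ATG3, the enzyme that joins ATG8 proteins to lipid, had 85.57, 88.49 and 83.45 CPM with ZNF783 siRNA, against 81.48, 80.27 and 83.35 CPM in controls. Its siRNA libraries were all higher by a narrow margin, and it did not pass (adjusted p = 0.163).

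Calls with ZNF783 siRNA depended on the fit. When all 12 libraries were fitted together, ATG14 alone remained called, where 4.21% of all genes were. The DESeq2 test kept 7 of the 14 (ULK1, ATG4B, ATG12, ATG14, WIPI2, LAMP1 and PSAP), where 15.4% of all genes passed. With the GC and length correction 9 kept their call and direction, ATG4B, TFEB, TFE3, CTSB and GAA lost it, SQSTM1, ATG9A and GRN were added as higher and ATG5 as lower, where 19.8% of all genes passed. Of genes of at least 10 CPM, 6.62% passed in the fit of all 12 libraries, 25% with DESeq2 and 28.6% with the correction. ULK1, ATG12, ATG14, LAMP1 and PSAP were called whichever single library was left out. The share of all genes called in this way is not given here.

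Both siRNAs were compared in 1 fit of the 12 libraries, as the log2 effect of ETS1 siRNA minus that of ZNF783 siRNA, each against its own controls. The 2 experiments share no library. Of 33 members, 1 passed, CTSA, where 1.68% of the 19594 genes tested did. Its difference was -0.36 (adjusted p = 0.0183, edgeR). Leaving out 1 library moved it between -0.39 and -0.34 apart from ETS1 siRNA replicate 1, without which it was -0.42, and the call was lost without ETS1 control replicate 1, ZNF783 siRNA replicates 1, 2 or 3, or ZNF783 control replicates 1 or 3. With the GC and length correction it was -0.30 (adjusted p = 0.152), not called, while GABARAPL1 and ULK1 were, where 3.84% of all genes passed. Of genes of at least 10 CPM, 6.07% passed with that correction. Of the exon bases of CTSA, 28.5% overlap genes on the opposite strand, among them PLTP and NEURL2, and the counting used no strand.

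Without ETS1 siRNA replicate 1, 11 of 33 members passed the test of the difference, where 13.7% of genes did, 7.41% lower and 6.25% higher. Among genes that averaged 10 CPM or more, 22.6% passed, 12.8% lower and 9.81% higher. CTSA (-0.42), ATG14 (-0.33), GABARAPL1 (-0.33), ATG9A (-0.33), ULK1 (-0.27), GRN (-0.24), SQSTM1 (-0.22), WIPI2 (-0.19), CTSL (-0.19) and MAP1LC3B (-0.13) were lower with ETS1 siRNA than with ZNF783 siRNA, on the log2 scale. CTSB (0.15) was higher. Adding the GC and length correction kept 10 of these 11, left out MAP1LC3B and added LAMP1 and CTSD, where 16.5% of genes passed. Among genes of at least 10 CPM, 27% passed in that fit. Each list of 14 called members, that of ETS1 siRNA without replicate 1 and that of ZNF783 siRNA, held 7 of the other. The share of all genes called in both fits is not given here. Of genes of at least 10 CPM, 39% passed in the first of these fits and 37.2% in the second. Of the 7 members called in both, ATG12 was higher with both, and ATG4B, TFE3 and PSAP were lower with both. GABARAPL1, ULK1 and CTSA were lower with ETS1 siRNA and higher with ZNF783 siRNA. For PSAP the difference between the siRNA effects was -0.02 without replicate 1, and for ATG4B it was 0.01, and neither passed. The members called with neither siRNA were GABARAP, GABARAPL2, BECN1, ATG3, ATG5, ATG7, ATG13, WIPI1, LAMP2, HEXA, NEU1 and MCOLN1.

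**Figure D4:**
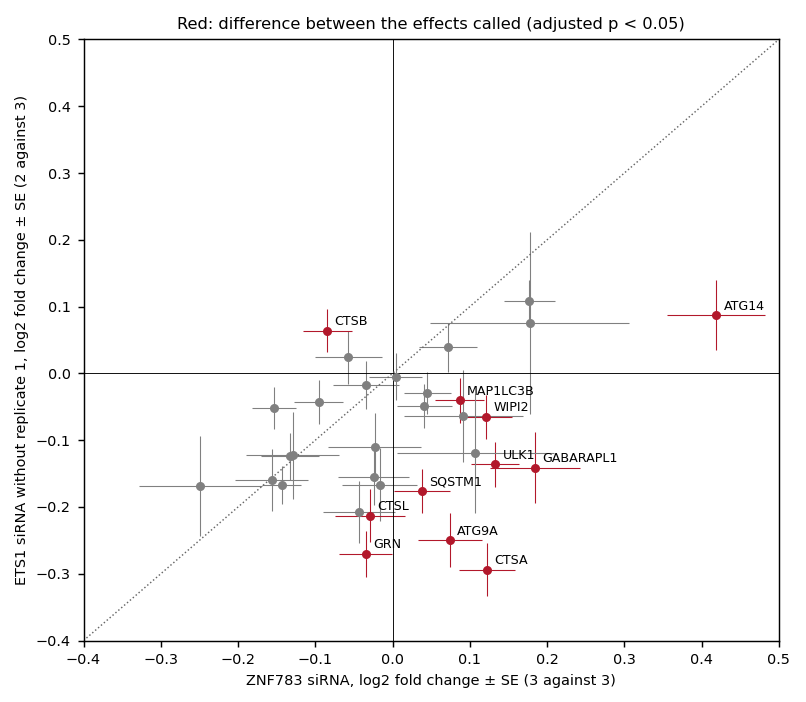
Log2 fold change of the 32 members with ETS1 siRNA without replicate 1 (y axis) against that with ZNF783 siRNA (x axis), with standard errors; the dotted line marks equal effects. Red points are the 11 members whose difference passed the test without replicate 1, of which 7 (CTSA, ULK1, GABARAPL1, ATG9A, SQSTM1, WIPI2 and MAP1LC3B) lie below 0 with ETS1 siRNA and above 0 with ZNF783 siRNA.

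A wider view came from 151 further genes of the same pathways in 9 lists, none of them among the 33. The lists, too, were chosen with earlier results of these data known. With ETS1 siRNA over all 6 libraries edgeR called 0 genes in each list. At an unadjusted p below 0.05 the lists had 1 to 6 genes, against 3535 of the 19542 genes tested. The list with 6 was that of the 16 subunits of the proton pump that acidifies the lysosome (V-ATPase). DESeq2 called 0 to 2 in each list, where 3.76% of all genes passed. Without replicate 1, of these 16 pump subunits 7 were lower and 1 was higher, of 32 further hydrolases tested 8 were lower and 0 higher, and of 13 fusion genes 6 were lower and 0 higher. Of 20 genes of nutrient sensing by mTORC1, the kinase complex at the lysosome, 8 were lower and 1 was higher, and of 16 selective receptors 5 were lower and 2 higher. Of 22 further initiation and conjugation genes 5 were lower and 6 higher. The remaining lists had 1 lower and 2 higher of 17 membrane proteins, 1 and 1 of 6 sorting genes, and 0 and 1 of 5 further transcription factors. These stand against 13% lower and 9.96% higher for all genes, and 22.9% lower and 16.1% higher for genes of at least 10 CPM. With the GC and length correction and without replicate 1, the hydrolases had 6 lower and 6 higher, the initiation and conjugation genes 3 and 2, the pump subunits 8 and 1, the fusion genes 4 and 0, the mTORC1 genes 7 and 1 and the receptors 5 and 1, against 11.2% lower and 9.05% higher for all genes. Of genes of at least 10 CPM, 19.7% were lower and 14.2% higher in that fit.

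Mean levels in this paragraph are over all ETS1 siRNA libraries, replicate 1 among them, while the fold changes leave it out. Among the further hydrolases, the sulphatase ARSA fell by 0.23 on the log2 scale without replicate 1. PPT1, a thioesterase, averaged 98.9 ± 0.999 CPM with ETS1 siRNA and 112 ± 1.75 CPM in controls (log2 -0.18 ± 0.03, adjusted p = 1.9e-05 without replicate 1). CD164, a sialomucin of lysosomal membranes, was higher with ETS1 siRNA, at 514 ± 43.4 CPM against 382 ± 7.50 CPM in controls (log2 0.35 ± 0.03, adjusted p = 3.76e-15 without replicate 1). The protease gene ATG4D averaged 35.3 ± 7.14 CPM with ETS1 siRNA and 53.6 ± 1.80 CPM in controls (log2 -0.45 ± 0.04, adjusted p = 6.24e-13 without replicate 1). Of the proton pump, ATP6V0A1 and ATP6AP1 each fell by 0.25 and ATP6V1A by 0.26 on the log2 scale without replicate 1. TMEM41B, a lipid scramblase of autophagosome formation, rose by 0.29 on the same scale.

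With ZNF783 siRNA the same lists moved in both directions. Of 16 V-ATPase subunits 2 were higher and 4 lower, of 22 initiation and conjugation genes 4 and 3, of 16 receptors 6 and 2, of 14 fusion genes 3 and 2, of 32 hydrolases 4 and 8, of 17 membrane proteins 5 and 2, of 6 sorting genes 1 and 1, of 20 mTORC1 genes 5 and 6, and of 5 transcription factors 2 and 0, against 11.3% higher and 13.8% lower of all genes. Of genes of at least 10 CPM, 17.1% were higher and 20% lower. With the GC and length correction the hydrolases had 6 higher and 5 lower, the mTORC1 genes 5 and 3, the membrane proteins 4 and 3 and the pump subunits 1 and 2. Of genes of at least 10 CPM, 13.2% were then higher and 15.4% lower. The factor FOXO3 averaged 82.6 ± 0.538 CPM with ZNF783 siRNA and 64.1 ± 2.51 CPM in controls (log2 0.36 ± 0.04, adjusted p = 1.49e-09). Its relative FOXO1 averaged 20.4 ± 0.305 CPM, against 17.3 ± 0.337 CPM in controls (log2 0.24 ± 0.07, adjusted p = 0.00869). The mitophagy receptor BNIP3L rose by 0.31 on the log2 scale, and NBR1, a receptor related to SQSTM1, rose by 0.18. FKBP8, of the same receptor list, was lower, with a log2 fold change of -0.19. Of the ULK1 complex, RB1CC1 rose by 0.24, and the ULK1 relative ULK2 rose by 0.25. ATG4D and MAP1LC3A, of the same initiation and conjugation list, were lower, with log2 fold changes of -0.19 and -0.21. RRAGD, a Rag GTPase, rose by 0.28, while RPTOR, the mTORC1 subunit that binds Rag GTPases, fell by 0.33. Of the hydrolases NAGLU fell by 0.35, MAN2B1 fell by 0.27 and GALC rose by 0.38 on that scale. The membrane transporter SLC38A9 rose by 0.33, NPC1, which exports cholesterol, rose by 0.20, and the tetraspanin CD63 fell by 0.25.

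**Figure D5:**
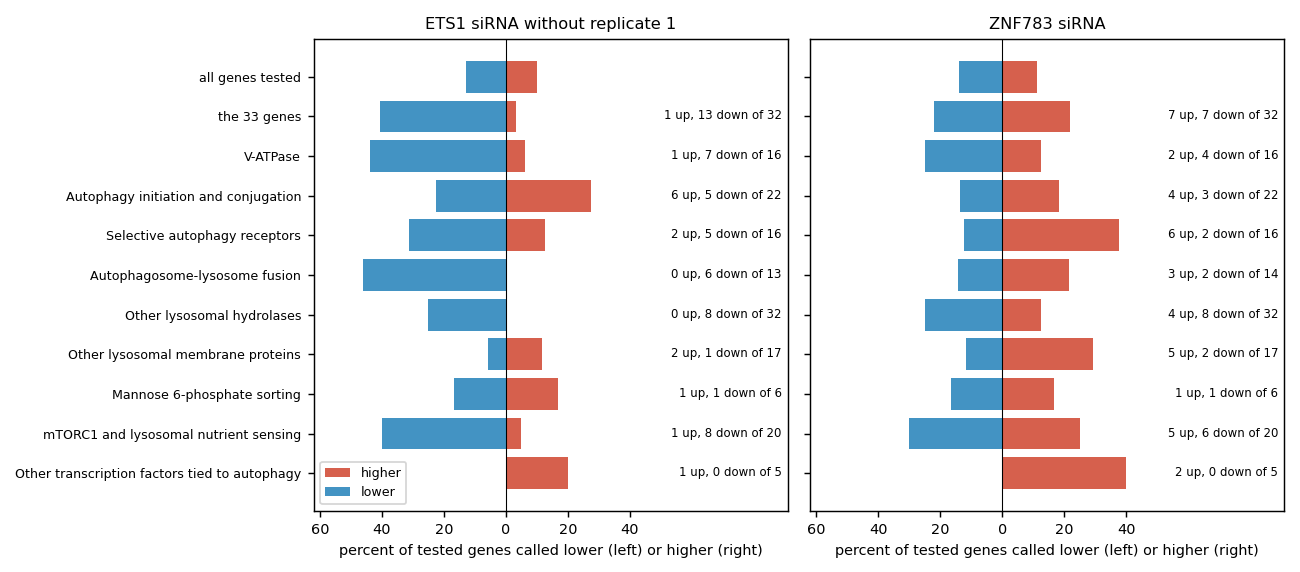
Percent of tested genes called lower (left of 0) and higher (right of 0) for all genes, the 33 members and 9 lists of related genes (y axis), with ETS1 siRNA without replicate 1 and with ZNF783 siRNA. In the left panel most bars reach further to the lower side, as with 13 members lower and 1 higher. In the right panel the members split into 7 higher and 7 lower. With the GC and length correction, not drawn, they split into 10 and 3, where 1553 of 17254 genes were higher and 1857 lower.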

How the data were processed

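RNA-seq was made from 12 samples of 22RV1 cells in 4 groups of 3, as the labels give them. Total RNA was extracted and made into directional libraries, per the labels' protocols. Each deposited table holds the raw counts of reads per gene that the authors made with featureCounts 2.0.1 for paired reads over exons of a GRCh38 annotation of release 107, per the file headers, whose command holds no strand option and no option to count reads that overlap several genes. The submitters' processing notes name hg38. No aligner version was found. The deposited counts were scaled by TMM to CPM (counts per 1000000), genes were filtered with filterByExpr, and each siRNA group was compared with the controls of the same experiment in edgeR 4.0.16 (quasi-likelihood F test, robust) in R 4.3.3. P-values were Benjamini-Hochberg adjusted over all genes tested, and genes below 0.05 were called. The SE given for edgeR fits was derived from the test, as the absolute log2 fold change divided by the square root of F. The difference of both effects came from 1 fit of the 12 libraries. Alternatives were other scaling and filters, DESeq2 1.42.0, limma-voom 3.58.1 with and without quality weights, a replicate block, a correction for GC content and length with splines of 5 degrees of freedom, and leaving out each library. Gene positions, exon lengths and GC content came from GENCODE 29 (GRCh38), which differs from the counting annotation, and symbols were matched through it. CPM per kilobase of that exon length was used only to order the members. The tests were first run on simulated counts. Of 50 genes given a 1.25-fold change, 6 were recovered in the ETS1 fit of all 6 libraries. For ZNF783 siRNA 43 of 50 were recovered, and for the difference 7 of 50. Members and lists were chosen with earlier results of these data known. Values are given for every member called in any comparison and for the ATG8 family, and for up to 4 called genes with the smallest p in each further list, of which 1 is not reported here. The labels do not say that replicates were separate cultures, so p-values cover the spread among these samples alone, and that spread may be technical. Library totals were 13518177 to 48996691 counts, and the floor of 3 counts covers counting error only.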

Additional observations from a re-analysis of the deposited data

Results flagged for a closer look

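In 6 of the genes reported here the effects of the 2 siRNAs differed in the test of the difference itself over all 12 libraries, and 1 of them was a member. For CTSA the difference on the log2 scale was -0.36 ± 0.07 (adjusted p = 0.0183), with a lower level with ETS1 siRNA and a higher one with ZNF783 siRNA. Its call was lost with the GC and length correction and when any of 6 single libraries was left out. Among the further hydrolases it was 0.39 ± 0.07 for MAN2B1, a mannosidase (adjusted p = 0.0127). For the membrane protein CD164 it was 0.43 ± 0.07 (adjusted p = 0.0102). Of the receptors, BNIP3, which acts in mitophagy, had -0.36 ± 0.08 (adjusted p = 0.0338) and NBR1 had -0.21 ± 0.05 (adjusted p = 0.0485). The BNIP3 call was lost in 10 of the 12 fits that left out 1 library (all but those without ETS1 siRNA replicate 1 or ZNF783 control replicate 1), and the NBR1 call in 11 of 12 (all but that without ETS1 siRNA replicate 1) and without a filter on low counts. RRAGD, a Rag GTPase of nutrient sensing, had -0.46 ± 0.08 (adjusted p = 0.00898), with 69.2 ± 1.74 CPM with ETS1 siRNA, against 79.0 ± 3.51 CPM in its controls, and 96.6 ± 0.234 CPM with ZNF783 siRNA, against 79.6 ± 5.16 CPM in its controls. Both experiments have controls of their own, and whether the differences lie in the siRNAs or in the 2 experiments cannot be told apart.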

How the results depend on the processing

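With ETS1 siRNA, 9 genes and 0 members were called by edgeR over all 6 libraries. Without a filter 253 genes were called, with DESeq2 734 genes and 2 members, with limma-voom 23 genes, with quality weights 3863 genes and 11 members, with the 12-library fit 1875 genes and 6 members, and with the GC and length correction 30 genes. Leaving out 1 library gave 0 to 4649 genes and 0 to 14 members, the highest without ETS1 siRNA replicate 1, and 3972 genes and 13 members with the correction added. The members' median log2 fold change of -0.16 was -0.05 with the correction, with or without replicate 1. With ZNF783 siRNA, 4428 genes and 14 members were called, with DESeq2 2718 and 7, with the 12-library fit 824 and 1, and without 1 library 3485 to 4127 genes and 9 to 12 members. The median of -0.006 was 0.037 with the correction. For the difference, 330 genes and 1 member were called, against 978 and 3 without a filter, 663 and 5 with DESeq2, 2503 and 9 with quality weights, 732 and 2 with the correction, 140 to 2735 genes and 0 to 11 members without 1 library, and 3198 and 12 with the correction and without ETS1 siRNA replicate 1. Compared with the fit of all 6 libraries, LAMP2 (-0.12) and GAA (0.083) had the other sign and a call with ETS1 siRNA when the correction was added and replicate 1 left out, of which LAMP2 was below 0 without replicate 1 alone. With the correction the direction turned for GAA (0.043) and GRN (0.094) with ZNF783 siRNA. Of the other values for single genes, 545 of ETS1 siRNA, 990 of ZNF783 siRNA and 797 of the difference kept their side of the threshold, among them uncalled values that changed sign, while 47, 7 and 38 gained a call and 0, 104 and 38 lost it. The cause was not tested. Deviations of same-numbered libraries had correlations of 0.0936, -0.247 and 0.315 in the ETS1 experiment and -0.025, -0.0296 and -0.0323 in the ZNF783 experiment. Same numbers thus had no positive correlation in the ZNF783 experiment. In the ETS1 experiment siRNA replicates 2 and 3 had 0.324 and 0.315 with the same control, replicate 3. As siRNA replicate 1 weighs on all deviations from its group mean, these values cannot tell whether the numbers pair the libraries there. With the replicate block 0 genes and 0 members were called with ETS1 siRNA, 4476 genes and 14 members with ZNF783 siRNA, and 54 genes and 0 members for the difference, where BNIP3, NBR1, MAN2B1, CD164 and RRAGD were not called either. With the block and the correction these were 0 genes with ETS1 siRNA (median -0.05), a median of 0.038 with ZNF783 siRNA, where GAA was 0.046 and GRN 0.093, and 0 members for the difference. NEU1, with at most 19 counts, was too shallow for a difference to be detectable in either experiment.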

Other observations

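Among the further genes of the pathway, more differed between the siRNAs without ETS1 siRNA replicate 1. The mitophagy receptor BNIP3L had a difference of -0.30 ± 0.05 on the log2 scale (adjusted p = 2.77e-06). Over all libraries, with ETS1 siRNA replicate 1 kept, it averaged 116 ± 8.63 CPM with ETS1 siRNA, against 110.4 ± 2.09 CPM in its controls. With ZNF783 siRNA it averaged 105 ± 1.97 CPM, against 84.6 ± 2.18 CPM in its controls. The catalytic subunit of the lipid kinase complex, PIK3C3, had -0.26 ± 0.06 (adjusted p = 0.000613), next to its partner ATG14. The mTORC1 subunit RPTOR went the other way, with 0.27 ± 0.07 (adjusted p = 0.00249), and so did the sorting receptor IGF2R, with 0.18 ± 0.04 (adjusted p = 0.000625).

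NPC1, the cholesterol exporter of the lysosome, was at 50.9 ± 1.64 CPM with ETS1 siRNA and 52.6 ± 0.31 CPM in its controls, but at 116 ± 4.17 CPM with ZNF783 siRNA and 101.6 ± 0.779 CPM in its controls. Levels of the controls thus differed between the experiments for this gene, and what else differed between them is not given in the labels.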
